A study of Rattus norvegicus with 15 samples.

Results

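The 162 genes described here are the autosomal protein-coding genes named Zfp, Znf, Zbtb, Zscan or Zkscan plus a number, without the Zfp36 group of RNA-binding proteins, among the 8621 rat genes that the study listed as changed in at least 1 of its 3 comparisons. Of them, 145 were listed for pheochromocytoma against wild type (PCC vs. WT), 102 for hyperplasia against wild type (HYP vs. WT) and 40 for pheochromocytoma against hyperplasia (PCC vs. HYP), 17 stood in all 3 lists and 54 in 1 only. The listed genes also hold 7862 other protein-coding genes, with which the members were compared. Being listed means that the study's own test had called the gene, so the direction, size and stage of the change are what remained to be described. Names starting with Zfp made up 136 members, Zbtb 19, Zscan 4, Zkscan 2 and Znf 1. The name rule also took in Zbtb8os, an RNA ligase cofactor that is no zinc finger protein.

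RNA-seq had been done on macrodissected adrenal medulla of Sprague Dawley rats (spelled Sprague-Dawely in the labels). WT rats (wildtype, 7 to 9.5 months) gave 5 samples, HYP rats (MENX, 4 to 5 months, hyperplastic medulla) 5 and PCC rats (MENX, 7 to 9.5 months) 5, each from its own animal per the study's methods. MENX rats carry a germline frameshift in Cdkn1b, which encodes the cell cycle inhibitor p27, in every tissue, and no agent was given. HYP and WT differ in age as well as genotype, which cannot be told apart. PCC and HYP rats share the genotype but differ in age, so age and tumor stage cannot be told apart either. WT rats have the age of the PCC rats, so the order WT, HYP, PCC is not an order of age. The PCC group mixes less and more advanced tumors that the labels do not separate. Reads counted on genes ranged from 16315018 to 23831269 per sample. Adrenal cortex was present in the dissected tissue: 11 cortex markers summed to 30026 to 58414 CPM (counts scaled to a common library size) in WT, 13406 to 33600 in HYP and 996 to 15048 in PCC, while 12 chromaffin markers summed to 1965 to 10071, 11143 to 15673 and 19295 to 38398. The groups therefore differed in their share of cortex and chromaffin RNA, in the order in which the members' levels below also differed. The part of these shares in the results was not tested, and in bulk tissue fewer cells of a type and less RNA per cell cannot be told apart.

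C2H2 zinc finger proteins bind DNA through arrays of fingers, each held by a zinc ion, and form the most numerous class of transcription factors in mammals. Many carry a KRAB domain, which recruits the corepressor Trim28 (KAP1) and, through it, Setdb1 and HP1 proteins, so that transposable elements and some imprinted genes are kept in heterochromatin. BTB domain members dimerize and recruit corepressors, and SCAN domains mediate pairing between family members. KRAB zinc finger genes lie in clusters that arose by duplication and evolve fast. The deposited tables gave the label KRAB to 52 members, zf-C2H2 to 33, BTB to 21, SCAN to 9 and no family to 47. Each gene had a single label at most, and protein domains were not read. A zf-C2H2 label or a missing label therefore does not show that a KRAB or other domain is absent. The labels are used below as given.

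Promoters were taken from RefSeq (GRCr8), which differs from the build of the count tables (Rn06). Of the 162 members, 106 matched a single promoter window, 103 by symbol and 3 by synonym. The window runs from 250 bases before the annotated start to 50 bases after it. The median member promoter had 13 CpG dinucleotides in the 250 bases before the start and a GC content of 56%. Over 17439 other protein-coding genes of RefSeq the medians were 9 and 54.8%. These include genes that the study did not list, unlike the other genes used for comparison elsewhere. A comparison with listed genes alone was not made. The ETS core CCGGAAG (either strand) was present in 27 of the 106 member windows (25.5%) and in 11.3% of the other windows. The GC box GGGCGG was found in 49.1% against 43.5%, the CCAAT box in 40.6% against 38.4%, the E box CACGTG in 4.72% against 7.35%, the NRF1 core in 3.77% against 1.14% and the YY1 core in 0.943% against 1.16%. The 38 KRAB members with a window had the ETS core in 28.9%, a median of 13 CpG and a GC content of 56.2%.

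The 150 bases before the start are shown for 7 members that the results below turn on, some higher and some lower in tumors, and they do not cover the full range of the members' promoters. Capitals mark the letters of the ETS core, the GC box or the CCAAT box on either strand, and these motifs did not overlap in the sequences shown. Zbtb45 (chr1:82711762-82711911, minus strand) and Zkscan3 (chr17:47912791-47912940, plus strand) hold the ETS core, and Zkscan3 also holds a GC box. Zfp763 (chr7:12798222-12798371, minus strand) holds a CCAAT box and a GC box. Zfp467 (chr4:78723136-78723285, minus strand) holds a CCAAT box in a stretch with 1 CpG. Zfp286a (chr10:47960392-47960541, minus strand) had 10 CpG in this stretch, and an ETS core only elsewhere in its window. Zfp385b (chr3:83034609-83034758, minus strand) had 6 CpG and Zfp347 (chr7:8117849-8117998, plus strand) had 0, each with a CCAAT box only elsewhere in its window.
Zbtb45: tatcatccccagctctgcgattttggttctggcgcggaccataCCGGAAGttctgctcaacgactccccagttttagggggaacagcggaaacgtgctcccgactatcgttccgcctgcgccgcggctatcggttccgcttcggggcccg
Zkscan3: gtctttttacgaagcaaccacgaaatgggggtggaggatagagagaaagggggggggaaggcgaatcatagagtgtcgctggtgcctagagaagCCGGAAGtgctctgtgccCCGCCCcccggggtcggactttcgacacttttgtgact
Zfp763: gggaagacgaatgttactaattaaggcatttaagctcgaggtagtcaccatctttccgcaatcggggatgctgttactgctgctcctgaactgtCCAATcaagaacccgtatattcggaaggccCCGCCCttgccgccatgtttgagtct
Zfp467: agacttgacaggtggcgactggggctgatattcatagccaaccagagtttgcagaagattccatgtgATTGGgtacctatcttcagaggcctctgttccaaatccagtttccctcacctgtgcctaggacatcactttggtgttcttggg
Zfp286a: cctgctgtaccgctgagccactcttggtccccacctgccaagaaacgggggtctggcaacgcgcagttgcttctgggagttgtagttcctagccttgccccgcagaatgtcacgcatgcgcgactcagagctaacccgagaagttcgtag
Zfp385b: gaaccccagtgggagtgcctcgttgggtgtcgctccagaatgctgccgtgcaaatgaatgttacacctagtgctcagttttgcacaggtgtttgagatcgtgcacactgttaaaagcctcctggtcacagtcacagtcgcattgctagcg
Zfp347: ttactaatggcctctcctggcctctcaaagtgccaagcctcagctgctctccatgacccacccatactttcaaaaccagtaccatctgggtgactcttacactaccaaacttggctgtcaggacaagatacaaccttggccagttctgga
Zbtb45, Zfp763, Zfp467 and Zfp286a were called higher in PCC than in WT, and Zkscan3, Zfp385b and Zfp347 were called lower. A match of letters is a description of the sequence and says nothing of a bound factor.

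Across all members, zinc finger protein genes were mostly higher in hyperplasia and in tumors than in wild-type medulla. In PCC vs. WT, 142 of the 145 listed members passed the filter on low counts and 130 were called at an adjusted p under 0.05, 108 higher and 22 lower, where 85.2% of all genes tested in this table were called (46.7% higher and 38.5% lower). The adjusted p came from edgeR and counts every gene the study had tested. Their median log2 fold change was 0.90, against 0.44 over 6557 other protein-coding genes. Fitted values above 0 were found for 79.6% of the members and for 50.7% of the other genes. The median size of the change regardless of direction was 0.99 on the log2 scale for members and 1.22 for the others, so the members leaned to one side with changes of moderate size. The 5 PCC samples all lay above the 5 WT samples for 87 members and all below for 14, where such separation held for 66.2% of all genes tested (37.1% above and 29.1% below).

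In HYP vs. WT, 101 of 102 listed members were tested and 63 were called, 57 higher and 6 lower, where 72.1% of all genes tested were called (39.5% higher and 32.5% lower). The HYP samples all lay above the WT samples for 43 members and all below for 5, against 57.1% of all genes tested (33.6% above and 23.5% below). The median log2 fold change was 0.78 for members and -0.37 for 3831 other protein-coding genes, with 87.1% and 47.5% fitted above 0. The size of the change had a median of 0.82 for the members. The 6 called lower were Zfp131, Zfp839, Zfp385b, Zfp703, Zfp618 and Zfp295. The count of 63 moved by more than 1.5 times when single libraries were left out: it was 40, 41, 37 and 40 without WT replicates 1, 2, 3 and 4, and 41, 40 and 36 without HYP replicates 2, 4 and 5. The median stayed between 0.72 and 0.90 over the 10 fits that left out 1 sample each.

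Far fewer members had been listed for PCC vs. HYP. Of 40, 39 were tested and 9 were called, 5 higher (Zfp286a, Zbtb8b, Zfp536, Zfp599 and Zfp467) and 4 lower (Znf750, Zfp385b, Zfp295 and Zfp706), where 44.4% of all genes tested were called (21.8% higher and 22.6% lower). The PCC samples all lay above the HYP samples for 14 members and all below for 9, against 51.6% of all genes tested (24.7% above and 26.8% below). The median log2 fold change was 0.47 for members and 0.43 for 3006 other protein-coding genes. Its median size was 0.59 for the members and 1.03 for the others. The count was 2, 3 and 3 without HYP replicates 3, 4 and 5, and 5 without PCC replicate 3. The split of the calls moved with the scaling, in members and in other protein-coding genes. Here 55.6% of called members were higher, 31.6% with DESeq2 size factors and 83.3% with the recovered library totals as library size. For the other genes these shares were 48.9%, 36.7% and 70.4%. In PCC vs. WT the members' share was 83.1%, and it was 96.6% when the total of the listed counts set the library size. The other genes stood at 54.7% and 76.3%. In HYP vs. WT the members' share was 90.5%, and 100% with that total, against 54.7% and 89.0% of the other genes. With that total the median of all genes tested moved up by 0.50 in PCC vs. WT and by 0.46 in HYP vs. WT on the log2 scale, and all changes above are relative to the TMM factors of the listed genes.

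**Figure D1:**
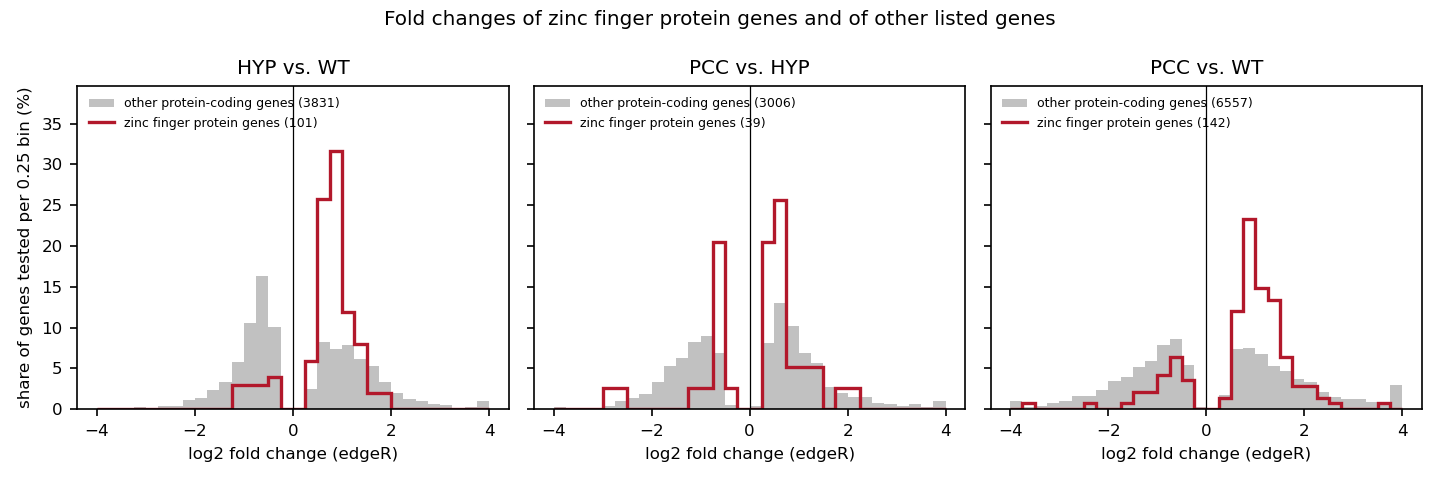
Share of genes tested (%, vertical axis) per 0.25-wide bin of log2 fold change (horizontal axis) for zinc finger protein genes (red outline) and other protein-coding genes (grey) in the 3 comparisons, with genes past 4 in the outermost bins. The gap around 0 comes from the tables, which list called genes, and the red outline lies mostly right of 0 in HYP vs. WT (87.1% of members) and PCC vs. WT (79.6%).

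The direction of change went with the level of a gene, both in members and in other genes. Among members averaging under 5 CPM, 26 of 27 were fitted higher in HYP vs. WT and 27 of 29 in PCC vs. WT. The other protein-coding genes in this range were fitted higher in 72.2% and 64.6%. Between 5 and 20 CPM, 40 of 41 and 55 of 62 members were fitted higher, against 61.5% and 62.3% of the other genes. From 20 to 100 CPM, the counts were 22 of 29 and 29 of 42 members, or 75.9% and 69.0%, against 38.6% and 46.1%. Above 100 CPM, none of 4 members was fitted higher in HYP vs. WT, with 2 called lower, and 2 of 9 in PCC vs. WT, with 7 called lower, against 19.1% and 30.2% of the other genes. The members were on average less abundant than the other genes, with a median of 12.4 CPM against 27.5 CPM in PCC vs. WT. Summed over the 107 members with values in all 15 samples that passed the filter, the level was 2700.05 ± 183 CPM in WT, 2858 ± 112 in HYP and 3021 ± 227 in PCC (mean ± SD, n = 5). The summed level of these 107 members therefore differed less between groups than the level of the median member did. The sum leaves out Zfp347, which has no HYP values and had the highest FPKM of all members in WT. On the CPM scale of PCC vs. WT, its samples ran from 307 to 1210.3 in WT and from 23.3 to 295 in PCC. The sum therefore does not stand for all members.

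On the length-normalized scale (FPKM, the authors' values), the median member was at 3.03 in WT (156 members), 5.93 in HYP (124) and 6.96 in PCC (152). Other listed protein-coding genes had medians of 7.22, 9.32 and 10.3 FPKM. Under 1 FPKM stood 16.0% of the members in WT and 6.58% in PCC, and 20.9% and 13.7% of the other genes. In WT, Zfp347 had the highest group mean of all members at 357 FPKM, followed by Zfp706 at 87.6, Zfp385b at 74.3, Zscan26 at 71.0 and Zfp131 at 64.6 FPKM. All 5 of these were lower in PCC, with group means of 78.5, 60.7, 7.46, 52.0 and 28.9 FPKM.

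KRAB zinc finger genes were higher in nearly every case. In HYP vs. WT, 35 KRAB members were tested, all 35 had a fitted value above 0, 24 were called higher and 0 lower, where 39.5% of all genes tested were called higher and 32.5% lower, and their median log2 fold change stood at 0.88. All 35 stayed above 0 under the 4 other scalings tried. In PCC vs. WT, 42 of 48 KRAB members were called higher and 2 lower (median 1.05), where 46.7% of all genes tested were called higher and 38.5% lower. In the zf-C2H2 group, 12 of 22 were called higher and 0 lower in HYP vs. WT, and 24 of 27 higher and 0 lower in PCC vs. WT. DESeq2 called 5 KRAB members and 2 zf-C2H2 members lower in PCC vs. WT, and 0 and 1 in HYP vs. WT. Whether the families differed from each other was not tested. The BTB group was split, with 12 called higher and 5 lower of 18 in PCC vs. WT. In HYP vs. WT, 3 of 11 BTB members were called higher and 1 lower, a called share of rises below the 39.5% of all genes tested. Of these 11, 9 had a fitted value above 0 (median log2 fold change 0.58), and DESeq2 called 9 higher and 1 lower. SCAN members were called higher in 6 and lower in 2 of 8 in PCC vs. WT, and higher in 4 of 6 in HYP vs. WT. Members without a family label held most of the falls, with 24 higher and 13 lower of 41 in PCC vs. WT and 14 higher and 5 lower of 27 in HYP vs. WT.

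Listed genes that carry a KRAB label but another name were also mostly higher: 14 of 16 were fitted higher in HYP vs. WT (10 called higher, 2 lower) and 16 of 19 in PCC vs. WT (14 higher, 3 lower). Taken with the members, 49 of 51 KRAB genes were fitted higher in HYP vs. WT, the highest share among the 16 annotated families with at least 20 genes tested in that table. In PCC vs. WT the share was 59 of 67, the second highest among 27 families.

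**Figure D2:**
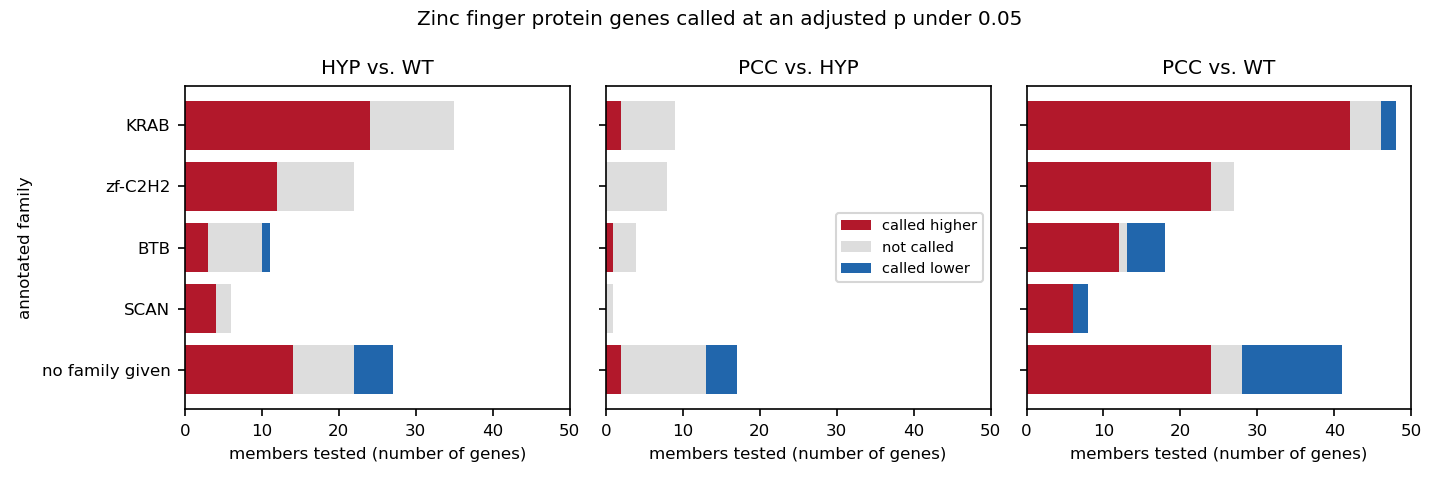
Number of zinc finger protein genes tested (horizontal axis) in each annotated family (vertical axis), split into called higher (red), not called (grey) and called lower (blue) at an adjusted p under 0.05. By edgeR 0 KRAB and 0 zf-C2H2 members were called lower in HYP vs. WT (1 zf-C2H2 member by DESeq2), and most falls are in genes without a family label or with BTB.

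For the 107 members with values in all samples, each sample's level was summarized as the median over genes of its ratio to the WT mean. A gene has values in all samples only where the study listed it in at least 2 comparisons. The ratio averaged 0.996 in WT (0.922 to 1.14), 1.57 in HYP (1.38 to 1.75) and 1.99 in PCC (1.66 to 2.23). All HYP samples lay above all WT samples, and the HYP and PCC ranges met, with the lowest PCC sample below the highest HYP sample. Over 4918 other protein-coding genes the ratio averaged 0.985, 1.01 and 1.19. KRAB members averaged 0.992, 1.63 and 2.06, zf-C2H2 members 0.998, 1.74 and 2.19, and BTB members 1.00, 1.44 and 1.94. Members without a family label stood lowest, at 0.996, 1.35 and 1.67.

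**Figure D3:**
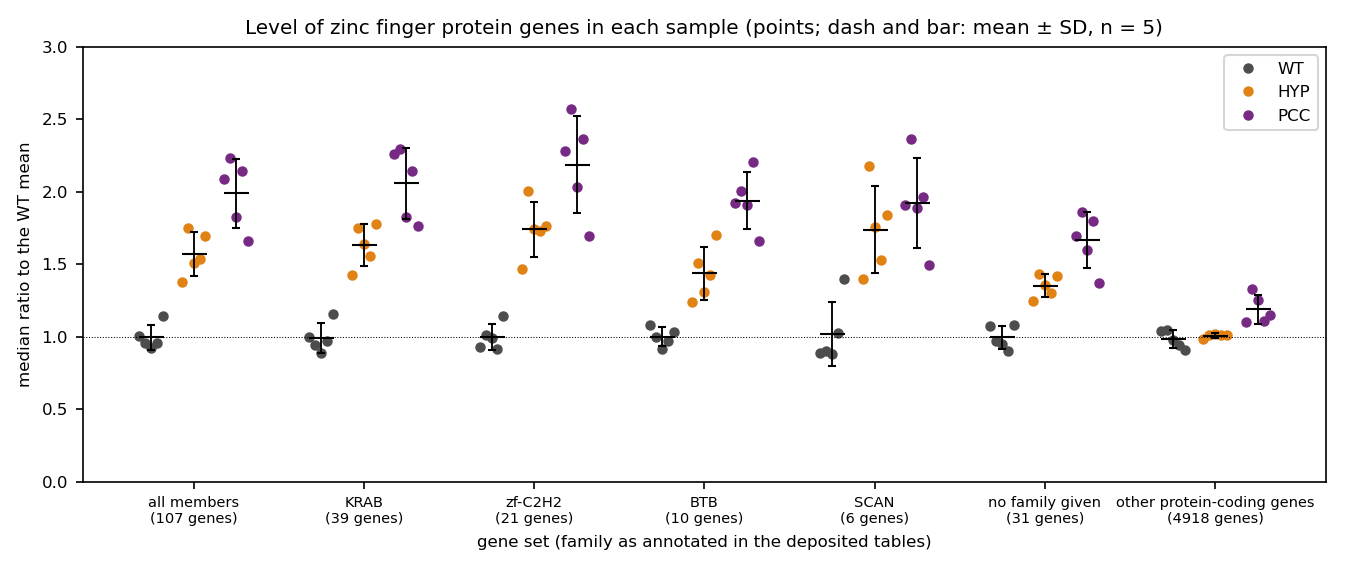
Median ratio to the WT mean (vertical axis, linear) in each of the 15 samples (points; WT grey, HYP orange, PCC purple) with mean ± SD (n = 5), for all members, each annotated family and the other protein-coding genes. For all members, HYP samples lie at 1.38 to 1.75 and PCC samples at 1.66 to 2.23, while the other genes stay near 1 in HYP.

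By stage, the fit over all 15 samples called 65 of the 107 members in HYP vs. WT (61 higher, 4 lower), where 44.2% of all genes tested were called (27.6% higher and 16.6% lower). In PCC vs. HYP it called 17 (15 higher, 2 lower), where 34.1% were called (20.4% and 13.6%), and in PCC vs. WT 106 (92 higher, 14 lower), where 93.6% were (50.3% and 43.3%). The first step only was called for 57 members (54 higher), the second only for 9 (8 higher), and both for 8. Of the rest, 32 were called in PCC vs. WT alone and 1 in no contrast. Among 4918 other protein-coding genes, 33.0% were called in the first step only and 23.8% in the second only, against 53.3% and 8.41% of the members. A call in one step and not in the other does not show that the steps differ. The difference of the steps was itself tested: edgeR called 0 of 107 members at an adjusted p under 0.05, with 24 under an unadjusted p of 0.05, and 1.04% of all genes tested. Group means rose in the order WT, HYP, PCC in 81 members, against 44.3% of the other genes, and fell in that order in 14. KRAB members were called higher in 26 of 39 in the first step and in 5 of 39 in the second.

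**Figure D4:**
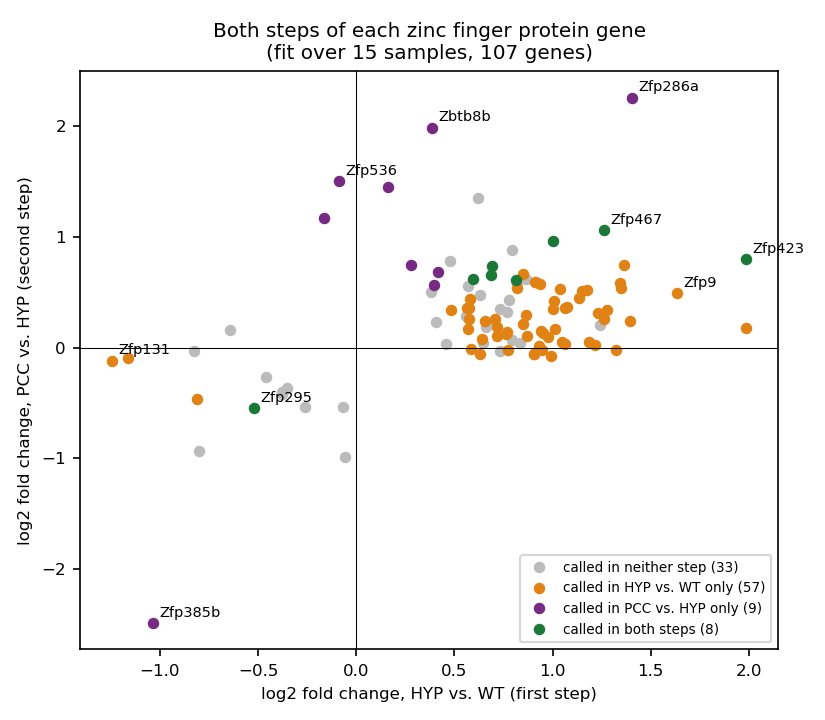
Log2 fold change of the first step (HYP vs. WT, horizontal axis) against that of the second (PCC vs. HYP, vertical axis) for 107 zinc finger protein genes in the fit over 15 samples, colored by the steps in which each was called. Both axes share the HYP samples, so the cloud's shape is not read as a relation; most points lie right of 0 (90 of 107), and genes described in the text are labelled.

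Zfp423, a multi-finger partner of EBF and SMAD proteins in neural and adipocyte development (chr19:20147037-20406003, Rn06), had the largest rise in HYP vs. WT among called members averaging at least 1 CPM. Its levels were 12.4, 13.2, 9.68, 8.801 and 6.38 CPM in the WT samples, 34.5, 56.3, 31.5, 36.1 and 41.8 CPM in HYP and 60.3, 104, 65.5, 65.6 and 52.99 CPM in PCC. The 3 groups did not overlap except that the lowest PCC sample lay under the highest HYP sample, and PCC replicate 2 stood far above the others. It rose against WT (log2 fold change 1.98 ± 0.22 (SE), adjusted p = 0.00031 for HYP and 2.75 for PCC). Between PCC and HYP it was called in the fit over 15 samples but not in the fit of PCC and HYP alone (log2 fold change 0.65 ± 0.21 (SE), adjusted p = 0.081).

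Zfp467, which favors adipocyte over bone fate in marrow stroma (chr4:78067689-78075398), was measured at 32.1, 33.1, 24.7, 20.2 and 15.5 CPM in the WT samples, 74.2, 68.8, 38.3, 61.2 and 59.02 CPM in HYP and 97.1, 169, 116, 135 and 112 CPM in PCC. The groups did not overlap at either step. It rose in HYP (log2 fold change 1.26 ± 0.22 (SE), adjusted p = 0.0036) and again in PCC (log2 fold change 0.91 ± 0.20 (SE), adjusted p = 0.023). The second call was lost without HYP replicates 3, 4 or 5 or PCC replicate 2, with adjusted p up to 0.067. Its promoter stretch, shown above, holds 1 CpG.

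The other members called higher in both steps of the fit over 15 samples were Zfp865, Zfp161 (Zbtb14), Zfp867, Zbtb45 and Zfp551. In PCC vs. WT their log2 fold changes were 1.31, 1.40, 1.93, 1.19 and 1.40, and PCC and WT samples did not overlap for any of them. In the fit of PCC and HYP alone none of these 5 was called (adjusted p from 0.075 to 0.18), and Zbtb45 and Zfp551 were not called in the fit of HYP and WT alone either (0.070 and 0.054). The HYP vs. WT calls of Zfp865 and Zfp867 were lost in 6 and 4 of the 10 fits without 1 sample (adjusted p up to 0.075 and 0.069).

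Zfp9, a KRAB member (chr4:150517027-150522351), stood at 4.05, 3.87, 3.01, 4.46 and 1.76 CPM in the WT samples, 7.403, 15.6, 10.9, 8.43 and 11.02 CPM in HYP and 21.9, 16.7, 13.7, 12.9 and 9.87 CPM in PCC. All HYP and PCC samples were above all WT samples, and HYP and PCC overlapped. It rose in HYP (log2 fold change 1.63 ± 0.27 (SE), adjusted p = 0.0027) and was also higher in PCC than in WT (log2 fold change 2.08).

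Zfp39, a further KRAB member (chr10:45220282-45243672), showed 3.29, 2.12, 2.59, 2.55 and 2.38 CPM in the WT samples, 5.68, 6.74, 7.27, 7.19 and 7.17 CPM in HYP and 8.39, 11.03, 7.77, 6.84 and 6.07 CPM in PCC. The HYP samples were tightly grouped above WT (log2 fold change 1.39 ± 0.20 (SE) in HYP vs. WT, adjusted p = 0.0012), and the PCC samples overlapped them. Zfp862 (chr4:78140483-78160638) had 2.08, 1.55, 2.06, 2.17 and 2.31 CPM in the WT samples, 4.63, 5.69, 3.32, 5.395 and 7.07 CPM in HYP and 5.49, 10.3, 10.02, 10.8 and 7.22 CPM in PCC. Every HYP and PCC sample exceeded every WT sample (log2 fold change 1.35 ± 0.24 (SE) in HYP vs. WT, adjusted p = 0.0039).

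Zfp57, the KRAB protein that keeps methylation at imprinted loci (chr20:2014170-2020537), was at 4.56, 3.61, 2.33, 2.74 and 1.83 CPM in the WT samples, 7.71, 9.501, 6.26, 6.13 and 8.97 CPM in HYP and 12.3, 16.3, 8.14, 11.7 and 7.61 CPM in PCC. All HYP and PCC samples were above the WT samples, and HYP and PCC overlapped. Its log2 fold change was 1.35 in HYP vs. WT (adjusted p = 0.0050) and 1.85 in PCC vs. WT (adjusted p = 0.0014). The remaining large rises in HYP vs. WT were Zfp334 (zf-C2H2, 1.33), Zfp78 (KRAB, 1.31) and Zfp763 (KRAB, 1.27), all with groups that did not overlap and with calls that held without any 1 sample.

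The next members had their highest group means in PCC, as Zfp423 and Zfp467 also did. None of them was called for the difference of the steps. Zfp286a, a KRAB member (chr10:49185812-49196177), had the largest rise in PCC vs. WT among called members averaging at least 1 CPM, at a low level, with 0.304, 0.103, 0.264, 0.0638 and 0.272 CPM in the WT samples, 0.494, 0.773, 0.376, 0.393 and 0.683 CPM in HYP and 1.01, 7.48, 1.56, 1.83 and 1.32 CPM in PCC. The groups did not overlap, and PCC replicate 2 stood far above the other tumors. The average over WT and PCC reached 1 CPM only through the PCC samples, most of all PCC replicate 2, so the rank rests on them. The change was large and poorly bounded (log2 fold change 3.63 ± 0.68 (SE), adjusted p = 0.0022), and was 2.77 without PCC replicate 2. The PCC vs. HYP change (log2 fold change 2.09 ± 0.57 (SE), adjusted p = 0.044) was 1.24 without that sample, and its call was lost without any 1 of the HYP replicates and without PCC replicates 2 or 3, with adjusted p up to 0.12.

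Zbtb8b (chr5:147628899-147635789) stood at 0.962, 0.568, 1.11, 0.5102 and 0.0679 CPM in the WT samples, 0.308, 1.71, 0.626, 0.731 and 0.878 CPM in HYP and 2.997, 3.000, 3.82, 4.87 and 2.35 CPM in PCC. WT and HYP overlapped, and all PCC samples were above both (log2 fold change 1.84 ± 0.40 (SE) in PCC vs. HYP, adjusted p = 0.021). That call was lost without HYP replicates 3, 4 or 5 (adjusted p up to 0.070). Zfp599, a KRAB member (chr8:23235594-23292682), had 2.53, 1.86, 1.22, 2.296 and 1.36 CPM in the WT samples, 2.16, 1.88, 2.26, 2.08 and 2.000 CPM in HYP and 5.95, 6.97, 6.12, 6.51 and 2.82 CPM in PCC. PCC replicate 5 was the lowest of the tumors yet above all WT and HYP samples (log2 fold change 1.30 ± 0.27 (SE) in PCC vs. HYP, adjusted p = 0.018). This call was lost without HYP replicates 3 or 4 (adjusted p up to 0.058).

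Zfp536, a repressor of neuronal differentiation (chr1:93851454-93949187), was at 4.204, 5.01, 6.87, 6.25 and 12.7 CPM in the WT samples, 7.09, 7.51, 4.39, 6.91 and 6.98 CPM in HYP and 12.9, 16.1, 24.1, 30.1 and 9.79 CPM in PCC. WT replicate 5 reached into the PCC range, and HYP and PCC did not overlap. It rose in PCC vs. HYP (log2 fold change 1.34 ± 0.30 (SE), adjusted p = 0.022), a call lost without HYP replicates 3, 4 or 5 or PCC replicate 3 (adjusted p up to 0.068), and in PCC vs. WT (1.39, adjusted p = 0.014). The other large rises in PCC vs. WT were Zfp69 (zf-C2H2, 1.94), whose groups overlapped, and Zfp867 (KRAB, 1.93), whose groups did not.

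**Figure D5:**
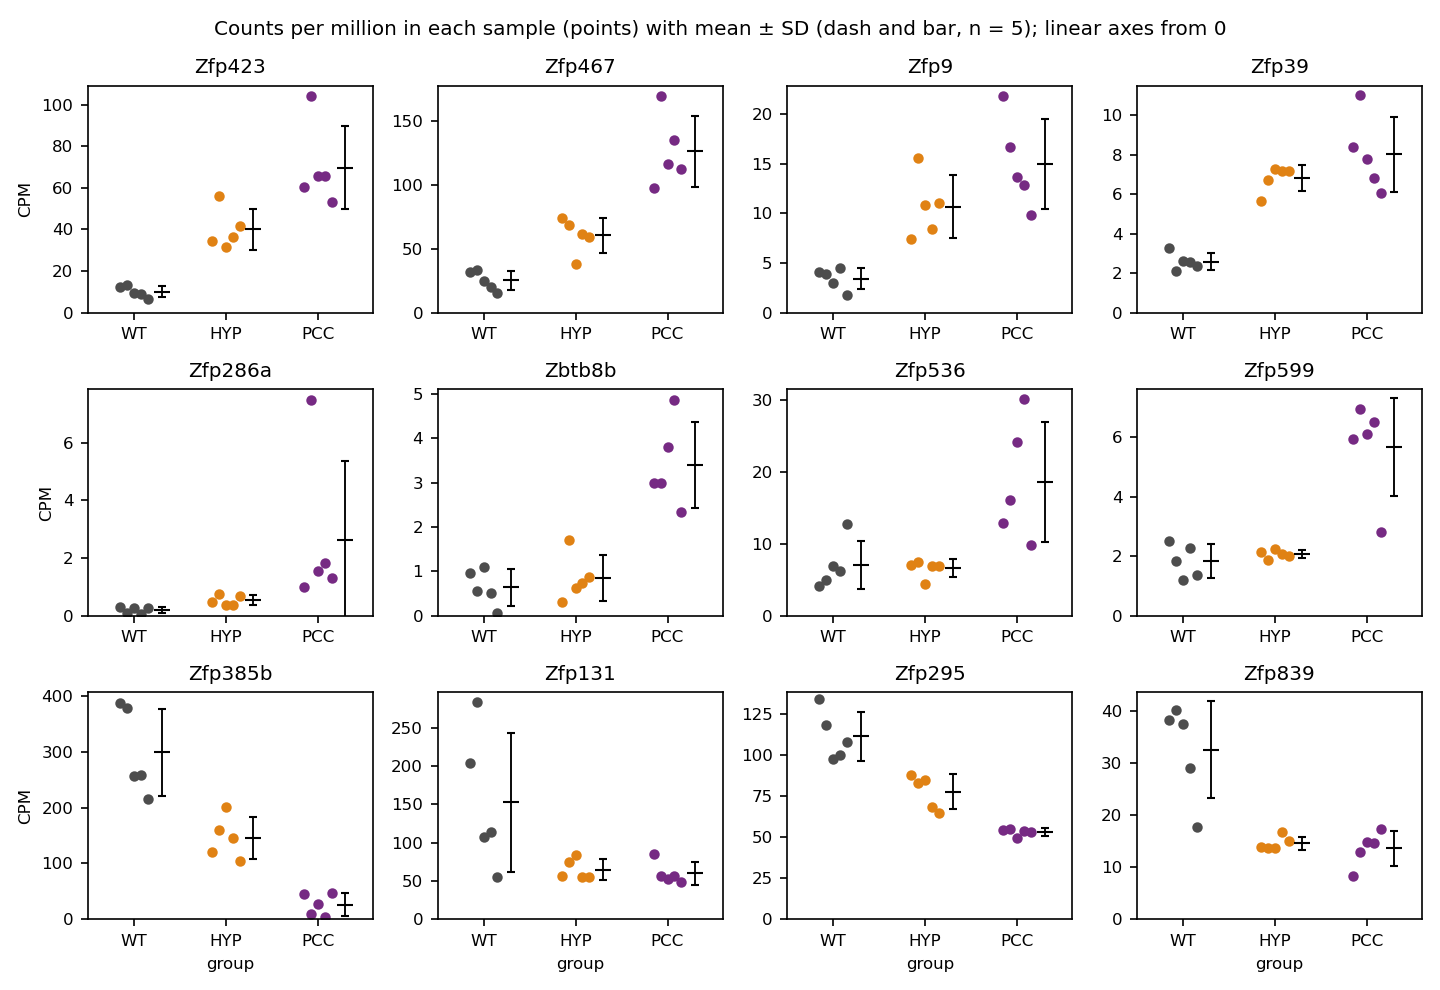
CPM (vertical axes, linear, from 0) of 12 zinc finger protein genes in each WT, HYP and PCC sample (points) with mean ± SD (n = 5); the lower SD bar of Zfp286a in PCC is cut at 0. Zfp423, Zfp467, Zfp9 and Zfp39 are up from HYP on, Zfp286a, Zbtb8b, Zfp536 and Zfp599 stand highest in PCC, and the bottom row falls.

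Zfp385b, which modulates p53 target genes in B cells (chr3:64269817-64543100), had the largest fall in PCC vs. WT among called members averaging at least 1 CPM. Its levels were 388, 378, 257, 258 and 215 CPM in the WT samples, 119.8, 159, 202, 146 and 105 CPM in HYP and 45.9, 8.44, 26.8, 2.84 and 46.8 CPM in PCC. The 3 groups did not overlap, and the PCC samples spread from 2.84 to 46.8 CPM. It fell in PCC vs. WT (log2 fold change -3.55 ± 0.65 (SE), adjusted p = 0.0019), with a log2 fold change of -1.03 in HYP vs. WT (adjusted p = 0.0077) and -2.59 in PCC vs. HYP (adjusted p = 0.029). The last call was lost without HYP replicates 2, 3, 4 or 5 or PCC replicates 2 or 3 (adjusted p up to 0.078), and the HYP vs. WT change was not called in the fit over 15 samples or with the total of the listed counts (-0.58, adjusted p = 0.11). The cortex markers fell in the same order of groups (median log2 fold change of 14 cortex markers -2.43 in PCC vs. WT), and their part in this result was not tested.

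Zfp347 (chr7:9974625-9976367), listed for PCC vs. WT only, was at 384, 527, 307, 1116 and 1210.3 CPM in WT and 295, 56.9, 84.5, 23.3 and 189 CPM in PCC. Every PCC sample lay below every WT sample, with a wide spread in both (log2 fold change -2.45 ± 0.66 (SE), adjusted p = 0.014). Zscan18 (chr1:65851060-65857872) had 3.19, 2.22, 3.97, 3.06 and 5.77 CPM in the WT samples, 2.097, 1.82, 2.13, 2.92 and 1.46 CPM in HYP and 0.692, 0.864, 1.93, 0.241 and 1.71 CPM in PCC. The PCC samples lay below WT without overlap (log2 fold change -1.75 ± 0.49 (SE), adjusted p = 0.018). With the total of the listed counts or the recovered library totals as library size the call was lost (-1.22 and -1.42, adjusted p = 0.11 and 0.055). HYP overlapped both and was not called against WT (adjusted p = 0.096).

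Zfp131, a BTB member (chr2:52504315-52531085), showed 204, 284, 108, 114 and 54.8 CPM in the WT samples, 56.5, 74.3, 83.3, 54.3 and 54.6 CPM in HYP and 84.9, 55.7, 52.6, 56.5 and 48.2 CPM in PCC. WT replicates 1 and 2 were far above all other samples, and WT replicate 5 lay inside the HYP range. It was called lower in HYP (log2 fold change -1.24 ± 0.35 (SE), adjusted p = 0.031), a call lost without WT replicates 1 or 2 or HYP replicates 1, 4 or 5 (adjusted p up to 0.066), and in PCC (-1.41, adjusted p = 0.016). Zfp839 (chr6:135270871-135287281) had 38.3, 40.4, 37.6, 29.1 and 17.7 CPM in the WT samples, 13.9, 13.6, 13.7, 16.7 and 14.97 CPM in HYP and 8.39, 13.02, 14.8, 14.6 and 17.3 CPM in PCC. HYP and WT did not overlap (log2 fold change -1.16 ± 0.20 (SE), adjusted p = 0.0033), and PCC overlapped HYP. Both were still lower, without a call, when the total of the listed counts set the library size, and the HYP vs. WT call of Zfp131 was also lost with the recovered library totals (adjusted p = 0.11).

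In the fit over 15 samples, Zfp295, also named Zbtb21 (chr11:38442742-38457373), was the 1 member called lower in both steps. Zfp385b was called lower in both fits of adjacent groups, but not in both steps of that fit. Zfp295 stood at 134, 118, 97.2, 99.9 and 107 CPM in the WT samples, 87.6, 82.6, 84.6, 68.1 and 64.5 CPM in HYP and 54.1, 54.8, 49.1, 53.8 and 53.2 CPM in PCC. The 3 groups did not overlap, and the PCC samples were close to each other. It was called lower in both fits of adjacent groups (-0.53 in HYP vs. WT and -0.69 in PCC vs. HYP, adjusted p = 0.023 and 0.017), and the first call was lost without WT replicate 1 or HYP replicates 4 or 5 (adjusted p up to 0.066). When listed counts were summed for the library size the values were -0.069 and -0.54 (adjusted p = 1.0 and 0.075), and with the recovered library totals -0.34 and -0.47 (0.22 and 0.073), so neither call held under these scalings.

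Zfp703, an oncogene of luminal breast cancer (chr16:69237857-69242028), was at 49.8, 35.4, 45.3, 32.5 and 67.9 CPM in the WT samples, 32.3, 16.2, 21.2, 32.3 and 28.05 CPM in HYP and 15.7, 15.2, 26.1, 26.8 and 43.7 CPM in PCC. The highest HYP samples stood at the level of the lowest WT sample, and PCC replicate 5 reached into WT (log2 fold change -0.84 ± 0.26 (SE), adjusted p = 0.042). Its calls in HYP vs. WT and PCC vs. WT were each lost in 7 of the 10 fits without 1 sample (adjusted p up to 0.11 and 0.12), and both were lost with the total of the listed counts (-0.38 and -0.36) and the recovered library totals (-0.62 and -0.55). Zfp706, which restrains Klf4 in embryonic stem cells (chr7:75801735-75809836), had 189, 183, 249.5, 227 and 274 CPM in the WT samples, 187, 166, 231, 174 and 178 CPM in HYP and 141, 111, 130.2, 105 and 157 CPM in PCC. PCC lay below both other groups (log2 fold change -0.68 ± 0.19 (SE) in PCC vs. HYP, adjusted p = 0.045). This call was lost in 8 of the 10 fits (adjusted p up to 0.12) and under these 2 scalings (adjusted p = 0.13 and 0.12). Znf750, a driver of epidermal differentiation listed for PCC vs. HYP only (chr10:110698891-110701137), was at 1.52, 1.69, 2.08, 2.69 and 2.01 CPM in HYP and 0.241, 0.248, 0.465, 0.137 and 0.355 CPM in PCC. The groups did not overlap, at a low level (log2 fold change -2.76 ± 0.37 (SE), adjusted p = 0.0027).

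Further members with a known role outside KRAB silencing were called in PCC vs. WT. Of the methyl-CpG-binding proteins, Zbtb4 was higher (log2 fold change 0.87) and Zbtb38 lower (-0.62). Zfp598, the ubiquitin ligase that senses collided ribosomes, was lower at -0.82, and so were Zkscan3, a repressor of autophagy genes, at -0.81, Zscan26 at -0.75 and Zbtb46, a factor of classical dendritic cells, at -1.03. Zbtb11, needed in neutrophil development, was lower at -0.76, Zfp618, a partner of Uhrf2, at -1.30, and Zfp933 at -1.07. The Zfp933 call was lost in 5 of the 10 fits without 1 sample, and the HYP vs. WT call of Zfp618 in 7. Zfp326, a subunit of the DBIRD splicing complex, was at -0.49, and turned to 0.0060 when the total of the listed counts set the library size and lost its call without PCC replicate 3. Zfp219, a Sox9 cofactor, was at -0.52, a call lost in 6 of the 10 fits without 1 sample. Most of these falls depended on the scaling. When listed counts were summed for the library size, Zbtb38 was at -0.11, Zbtb46 at -0.51, Zbtb11 at -0.26, Zfp598 at -0.32, Zkscan3 at -0.30, Zscan26 at -0.24, Zfp933 at -0.57 and Zfp219 at -0.011, all without a call (adjusted p from 0.12 to 1.0). With the recovered library totals, Zbtb38 (-0.32), Zbtb46 (-0.71), Zbtb11 (-0.46), Zfp933 (-0.78), Zfp219 (-0.21) and Zfp326 (-0.21) were not called either (adjusted p from 0.062 to 0.77). The Zfp618 call in HYP vs. WT was also lost under both (-0.37 and -0.61).

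On the side of the rises stood Zfp574 (1.48), Zfp382 (1.62), the double-stranded RNA-binding Zfp346 (0.90), Zfp827, which recruits the NuRD complex to telomeres (0.88), and Zfp746 (PARIS), a repressor of Ppargc1a (0.61). Zfp503 (Nolz1), a factor of striatal development, was called at 0.97, Zfp518a at 0.64 and Zfp830 at 0.55, each with a call lost in 7 of the 10 fits without 1 sample. Of these genes, Zfp574, Zfp382, Zfp827 and Zfp346 were also called higher in HYP vs. WT (0.93, 1.15, 0.98 and 0.56), the last lost in 8 of the 10 fits.

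The partners through which KRAB proteins silence were few among the genes tested. Of 31 corepressor and heterochromatin genes, 7 were tested in PCC vs. WT, with 5 called higher (Atf7ip, Dnmt3a, Smarcad1, Suv39h2 and Uhrf1) and 1 lower (Mta2). Of all genes tested there, 85.2% were called (46.7% higher and 38.5% lower). The median log2 fold change was 0.80 beside 0.44 over all genes tested. In HYP vs. WT 4 were tested and 2 called higher (Smarcad1 and Suv39h2), where 72.1% of all genes tested were called. In PCC vs. HYP 3 were tested and 1 called higher (Uhrf1), where 44.4% were called.

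Members that lie in clusters were mostly called higher, as members were in general. With a gap of at most 200000 bases and at least 3 members, 10 clusters on Rn06 held 41 members. In PCC vs. WT, 40 of these were tested and 36 were called higher and 3 lower, where 46.7% of all genes tested were called higher and 38.5% lower. In HYP vs. WT 19 of 33 were called higher and 0 lower, where 39.5% and 32.5% were. The cluster of 6 on chr4:77495663-77747070 (Zfp786, Zfp398, Zfp282, Zfp956, Zfp777 and Zfp746) was called higher throughout in PCC vs. WT, with log2 fold changes from 0.48 to 1.66. So was the cluster of 5 on chr7:15069254-15425802 (Zfp799, Zfp472, Zfp952, Zfp763 and Zfp563), from 0.85 to 1.58. The cluster of 4 on chr8:21380504-21617736 (Zfp560, Zfp426, Zfp266 and Zfp846) was called higher throughout in both comparisons with WT, from 0.88 to 1.40 in PCC and from 0.75 to 1.07 in HYP. A cluster of 4 on chr17:45078556-45263418 was divided: Zfp192 (Zkscan8) and Zkscan4 were called higher and Zscan26 and Zkscan3 lower in PCC vs. WT. Zscan18 was the 1 member that fell in its cluster of 4 on chr1:65564173-65857872, beside Zbtb45, Zfp446 and Zfp329. Neighbors and near-identical copies can share reads, so Zfp866 and Zfp94, each listed under a pair of gene IDs, are uncertain one by one.

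The members lie on all 20 autosomes, with 37 on chromosome 1. On chromosome 4, 12 of 12 members tested were called higher in PCC vs. WT, and on chromosome 1, 28 of 33 were called higher and 1 lower, where 46.7% of all genes tested were called higher and 38.5% lower. On chromosome 5 there were 5 rises and 4 falls among 10.

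Marker lists also differed between the groups, some upward and some downward. Of all genes tested in PCC vs. WT, 46.7% were called higher and 38.5% lower. These shares were 39.5% and 32.5% in HYP vs. WT and 21.8% and 22.6% in PCC vs. HYP. Chromaffin markers rose in both comparisons with WT (12 of 12 called higher in PCC vs. WT, median log2 fold change 2.06, and 7 of 10 in HYP vs. WT, 1.29), and proliferation markers did as well (13 of 13 and 12 of 12 called higher, 2.93 and 1.57). Only genes the study listed could be tested. Of the 16 chromaffin markers, Pnmt, Chga, Chgb and Gata3 were not tested in PCC vs. WT. The paper reports less Pnmt in advanced tumors by qRT-PCR, so the rise does not hold for every chromaffin marker. Cortex markers fell (11 of 14 and 5 of 9 called lower, -2.43 and -1.23), and endothelial markers were called lower in 5 of 8 (1 higher) and 6 of 6 (medians -1.14 and -0.74). In PCC vs. HYP the calls were 3 of 11 higher for chromaffin, 11 of 12 higher for proliferation, 1 of 8 lower for cortex and 1 of 3 higher for endothelial markers. Sustentacular and Schwann markers summed to 67.4 to 222 CPM in WT, 203 to 258 in HYP and 343 to 455 in PCC, with 5 of 7 called higher and 2 lower in PCC vs. WT, 3 and 1 of 5 in HYP vs. WT, and 1 and 2 of 4 in PCC vs. HYP. Macrophage and leukocyte markers had 3 genes tested in PCC vs. WT (1 higher, 2 lower), 1 in HYP vs. WT (higher) and 2 in PCC vs. HYP (1 lower). Of the adipocyte markers, Pparg was called lower in PCC vs. WT, 0 of 1 were called in HYP vs. WT, and 0 were tested in PCC vs. HYP. The part of these lists in the members' values was not tested.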

How the data were processed

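Poly(A)-selected RNA from adrenal medulla of 5 WT, 5 HYP and 5 PCC rats was sequenced with an unstranded kit. Per the submitters' processing notes, reads were aligned with HISAT2 2.0.5 and counted with featureCounts 1.5.0-p3 on Rn06, and the study compared groups in pairs with DESeq2. The 3 deposited tables hold, only for genes the authors called, raw counts, the size-factor-normalized signal the authors derived from them, and FPKM values. The authors' p-values in the deposited tables served only to recover how many genes they had tested (18790 in PCC vs. WT, 18057 in HYP vs. WT and 17454 in PCC vs. HYP), and their fold changes were not used.

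Counts were fitted per table with edgeR 4.0.16 (R 4.3.3), quasi-likelihood test, filterByExpr and TMM factors over the listed genes. Benjamini-Hochberg adjustment used the authors' number of genes tested, which counts the unlisted genes, and calls are at an adjusted p under 0.05. The spread of the counts and the TMM factors were estimated on listed genes only. The authors had called these genes from the same counts, and how far this selection changes the p-values was not tested. TMM over lists of changed genes sets the zero of the fold changes, and other scalings (DESeq2 1.42.0 included) were tried. CPM values use TMM-scaled library totals recovered from the FPKM values. Steps were fitted over all 15 samples. Library totals were 17723131 to 20972536 reads in WT, 16315018 to 18839462 in HYP and 17340695 to 23831269 in PCC. Code was tested on simulated counts. The members and gene lists were chosen with earlier results of these data known.

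Genes named are, for every comparison, the 8 called members that rose most and the 8 that fell most with an average of at least 1 CPM, members called in both steps, and called members of a list of well-known roles, with values per sample for the 4 largest. Genes named in clusters and the corepressor list were chosen after their values were seen, as were members of counts of 5 or fewer. The 4 X-linked genes and 6 Zfp36 genes were left out. Replicate numbers did not pair the samples. Marker lists were used for cortex, chromaffin cells, endothelium, macrophages with other leukocytes, adipocytes, Schwann with sustentacular cells, and proliferation, besides a list of KRAB corepressors. Results on corepressors of BTB proteins are not reported here.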

Additional observations from a re-analysis of the deposited data

Results flagged for a closer look

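In 6 of 52 groups of 5 samples of the genes shown per sample, 1 sample lay apart from the others by Dixon's criterion, where chance alone gives about 5%. Zfp423 in PCC replicate 2 was at 104 CPM, with the next tumor at 65.6. Zfp286a in PCC replicate 2 was at 7.48 CPM, with the next at 1.83. Zfp131 in PCC replicate 1 was at 84.9 CPM, with the next at 56.5. Zfp295 in PCC replicate 3 was at 49.1 CPM, below the next at 53.2. Zfp599 in PCC replicate 5 was at 2.82 CPM, below the next at 5.95. Zfp536 in HYP replicate 3 was at 4.39 CPM, below the next at 6.91.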

How the results depend on the processing

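When library size was the sum of listed counts, PCC vs. WT had 4 members called lower (median 1.42), HYP vs. WT 88 higher and 0 lower (1.24) and PCC vs. HYP 2 lower. Recovered library totals gave 10 lower (1.21), 87 higher and 2 lower (1.01), and 10 higher and 2 lower (0.67). DESeq2 called 19 in PCC vs. HYP, 13 lower (median 0.29), and the authors' size factors gave 10 higher there. Of the other protein-coding genes DESeq2 called 2114 of 3006 there, 36.7% of them higher. The fit over 15 samples gave 14 lower (1.08) in PCC vs. WT and 17, 15 higher and 2 lower (0.26), in PCC vs. HYP. Requiring 10 counts in every sample left 3 lower in HYP vs. WT and 3 higher in PCC vs. HYP, and turned the median of the other genes in PCC vs. WT to -0.29. Adjusting over the listed genes alone called 101 (88 higher, 13 lower) in HYP vs. WT and 36 (23 and 13) in PCC vs. HYP. It also called 3809 of 3831 and 2902 of 3006 other protein-coding genes, so nearly every listed gene was called. Calls of at least 2-fold numbered 70 (61 and 9) in PCC vs. WT, 24 (21 and 3) in HYP vs. WT and 6 (4 and 2) in PCC vs. HYP. Zfp and Znf names alone gave 14 lower in PCC vs. WT. Zbtb, Zscan and Zkscan names alone gave 20 (12 and 8, median 0.59), 2 (2 and 0, 0.57) and 1 (1 and 0). Without 1 sample each, counts ranged from 103 to 128 (higher 83 to 107, lower 16 to 21, median 0.84 to 0.99) in PCC vs. WT, 36 to 86 (33 to 82, 2 to 6, 0.72 to 0.90) in HYP vs. WT and 2 to 13 (0 to 6, 2 to 7, 0.38 to 0.50) in PCC vs. HYP. Samples with the same replicate number did not deviate together (correlations -0.25 to 0.26). A replicate block gave 106, 53 and 1 (0 higher, 1 lower) called members. Of the other protein-coding genes it called 4735 of 6557, 2150 of 3831 and 358 of 3006. Of the named genes, Zfp326 in PCC vs. WT reversed, to 0.0060 with the sum of listed counts. For the rest of the named genes, 697 values in PCC vs. WT kept their direction and side of the threshold and 70 lost the call, against 385 and 58 in HYP vs. WT (13 gained one) and 219 and 48 in PCC vs. HYP (14 gained one). The cause was not tested. The tables hold only called genes, so members that did not change are not analysed here.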
